A study of Mus musculus with 24 samples.

Results

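Albumin and the apolipoproteins are among the proteins that the liver secretes into plasma, and 10 genes of these families were followed here through the DNA methylation of 3 mouse tissues. The genes were Alb, Afp, Apoa1, Apoa2, Apoa4, Apoa5, Apob, Apoc3, Apoe and Apoh. For each gene, every measured 100 bp tile from 10000 bp upstream of the transcription start to the end of the gene was taken. This gave 121 tiles of the 10 genes in at least 1 tissue and 103 in all 3, out of 758685 tiles measured in all 3 tissues. Of the 121 tiles, 105 were in the liver table, 117 in the brain table and 116 in the heart table.

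The samples were genomic DNA of male and female C57BL/6J mice at 24 weeks of age, an inbred strain with no transgene and no treatment. There were 12 liver libraries, of 6 males and 6 females, and 6 libraries each of brain and heart, of 3 males and 3 females, every mouse giving 1 library of a tissue. The pieces taken were the caudal end of the left liver lobe, a coronal slice of the rostral brain and the apex of the heart, so each held several cell types. Methylation was read by reduced representation bisulphite sequencing, in which restriction enzymes cut out a CpG-rich part of the genome, bisulphite converts unmethylated cytosines and the share of reads with an unconverted cytosine gives the methylation level. Levels are given in percent, and differences in percentage points. A level is the average over all cells of the piece, so a different mix of cells and a different level within 1 cell type cannot be told apart.

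In the deposited tables the libraries of a tissue carry running numbers only, which match no mouse and no sex and by which they are numbered here. Males and females were therefore not compared, and the spread between libraries of a tissue includes any difference between them. The labels give 12 mouse numbers, and the 6 numbers of the brain and heart libraries also appear among the liver libraries, 2 of them with the opposite sex. Each tissue was filtered and deposited on its own, so tissue and table cannot be told apart. Over the common tiles the mean level was 64.8 to 66.1% in the 12 liver libraries, 63.7 to 66.4% in the 6 brain libraries and 59.6 to 60.3% in the 6 heart libraries, so the heart was lower across the genome. The lowest correlation between 2 libraries of the same tissue was 0.942 across tiles, which are not independent replicates, and no libraries were duplicates. No read counts were used here, so the depth behind a level is unknown.

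Albumin carries fatty acids, bilirubin and many drugs in plasma, and alpha-fetoprotein, the product of Afp, is its fetal counterpart, whose gene is silenced after birth. Apob codes for the scaffold protein of very low and low density lipoproteins, Apoa1 and Apoa2 for the main proteins of high density lipoproteins, and Apoe for a ligand of the low density lipoprotein receptor that astrocytes and macrophages make as well. Apoc3 and Apoa5 act in opposite directions on the hydrolysis of plasma triglycerides, Apoa4 is carried on chylomicrons, and Apoh, or beta-2-glycoprotein I, binds phospholipids. In mammalian DNA most CpGs are methylated, CpG islands are usually not, and regulatory elements away from islands tend to lose methylation in the cells that use them.

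The sequences show which parts of these genes the method could read. The 250 bases before the start of Alb hold 2 CpGs and no CCGG, the MspI site at which most reduced representation protocols cut, and no tile covered them. The enzymes used in this study are not given in the sources used here. The 250 bases before the start of Apob hold 7 CpGs and 1 CCGG, and 2 tiles touched them. Both are written 5′ to 3′ along the gene with every CpG in capitals, for chr5:90460620-90460869 and chr12:7977427-7977676 on the plus strand of GRCm38.p6, the build also called mm10, with the sequences taken from RefSeq.
Alb, before the start: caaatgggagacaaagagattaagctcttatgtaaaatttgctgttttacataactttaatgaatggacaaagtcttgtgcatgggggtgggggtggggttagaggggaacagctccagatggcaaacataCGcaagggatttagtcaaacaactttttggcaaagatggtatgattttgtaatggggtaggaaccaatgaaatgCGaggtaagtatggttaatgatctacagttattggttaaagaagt
Apob, before the start: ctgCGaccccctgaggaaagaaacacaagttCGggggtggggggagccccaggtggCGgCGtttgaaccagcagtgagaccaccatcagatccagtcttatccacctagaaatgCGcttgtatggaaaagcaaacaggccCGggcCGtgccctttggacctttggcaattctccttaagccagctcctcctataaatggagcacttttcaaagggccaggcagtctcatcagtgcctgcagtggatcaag

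Promoters, taken as the 1000 bp before the 5′-most curated RefSeq start, were covered in 3 of the 10 genes, by 4 tiles in Apob and 1 tile each in Apoa2 and Apoa5. The promoters of Alb, Afp, Apoa1, Apoc3, Apoe and Apoh hold no CCGG and had no tile. For Apoe this holds for the first of its 3 curated starts only. The 250 bases before each of its other starts hold 2 CCGG and were touched by 4 and 3 tiles, which are counted as body here. The promoter of Apoa4 holds 1 CCGG and had no tile either. The covered promoters hold 22 CpGs in Apoa2, 21 in Apob and 15 in Apoa5, and the others between 3 in Apoa4 and 16 in Apoe. Gene bodies were covered in 7 genes, with no tile in Apoa1, Apoc3 and Apoa5, and every gene had at least 1 tile further upstream. The letters GTTAAT, which occur in many HNF1 sites, were found on either strand in the 250 bases before a start of Alb, Afp and Apoe, as in 6.45% of 31396 autosomal promoters. TATAAA was found in those of Afp, Apoa2, Apoa5, Apob and Apoe (12.4% of all), and AGGTCA, a core of many nuclear receptor sites, in those of Apoa2 and Apoh (14.1% of all). These matches used the promoter table for 9 of the 10 genes, with more than 1 start for Apoa2, Apoa5 and Apoe. Apoc3 was not matched.

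At part of these tiles liver differed from the other tissues, mostly by a lower level. Tissues were compared with limma over all 758685 tiles, and a tile was called at an adjusted p of at most 0.01 and a difference of at least 25 points, the thresholds of the study. Of the 103 tiles, 38 (36.9%) were called lower in liver than in brain, against 4.76% of all tiles, and 34 (33.0%) lower in liver than in heart, against 2.87% of all tiles. Only 2 tiles were called higher in liver than in brain (5.04% of all tiles) and 5 higher in liver than in heart (7.94% of all tiles). Between brain and heart, 2 were called lower in brain (1.75% of all tiles) and 4 higher in brain (7.71% of all tiles). Without heart library 1 the 5 tiles higher in liver than in heart became 3, and without brain library 3, brain library 5 or heart library 5 the 2 tiles lower in brain became 1.

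**Figure D1:**
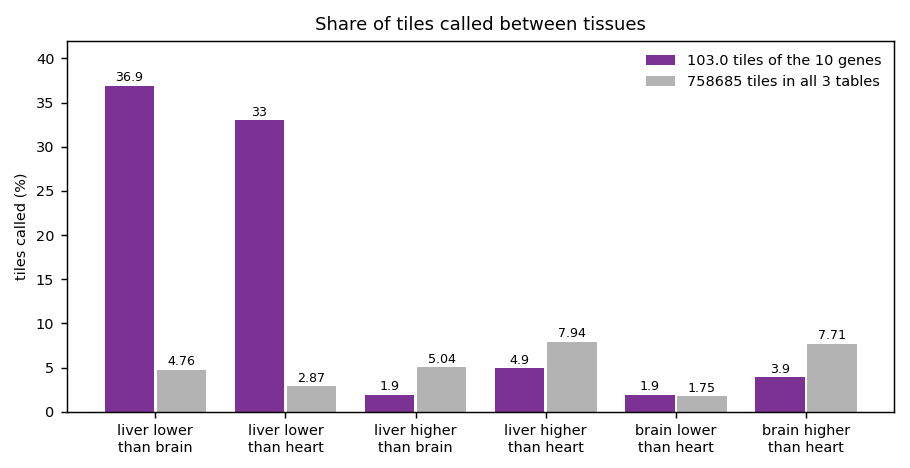
Percentage of tiles called between tissues (y axis) in each direction (x axis), for the 103 tiles of the 10 genes and for all 758685 tiles. The 2 directions with liver lower stand at 36.9% and 33.0% for the genes and at 4.76% and 2.87% for all tiles, while the other 4 directions range from 1.9 to 4.9% for the genes and from 1.75 to 7.94% for all tiles.

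The tiles can be sorted by their calls and levels. In all, 34 tiles (33.0%) were called lower in liver than in both other tissues, against 2.46% of all tiles, with a median level of 24.3% in liver, 85.6% in brain and 78.9% in heart. They lay in 8 genes, and 2 of them, in Apoa4, also lie upstream of Apoc3. Apoh had none. Counting a shared tile for each gene, 5 lay in promoters, 12 in bodies and 19 further upstream. In 33 tiles every liver library was below every brain and heart library (3.06% of all tiles), and in 2 tiles every liver library was above (4.13% of all tiles). Of the 103 tiles, 18 were under 10% in all 3 tissues, which is close to the share of 14.1% over all tiles. Another 36 were at 60% or more in all 3. The share of such tiles over all tiles was not computed, but the median level over all tiles was at least 71.4% in every library. The 34 tiles held 1 to 6 CpGs, with a median of 2, and 21 of them contained a CCGG. Over all 103 tiles the median was also 2, and 61 contained a CCGG. None of the 34 had 50 or more repeat-masked bases, against 5 of the 36 tiles that were high everywhere and 6 of all 103.

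**Figure D2:**
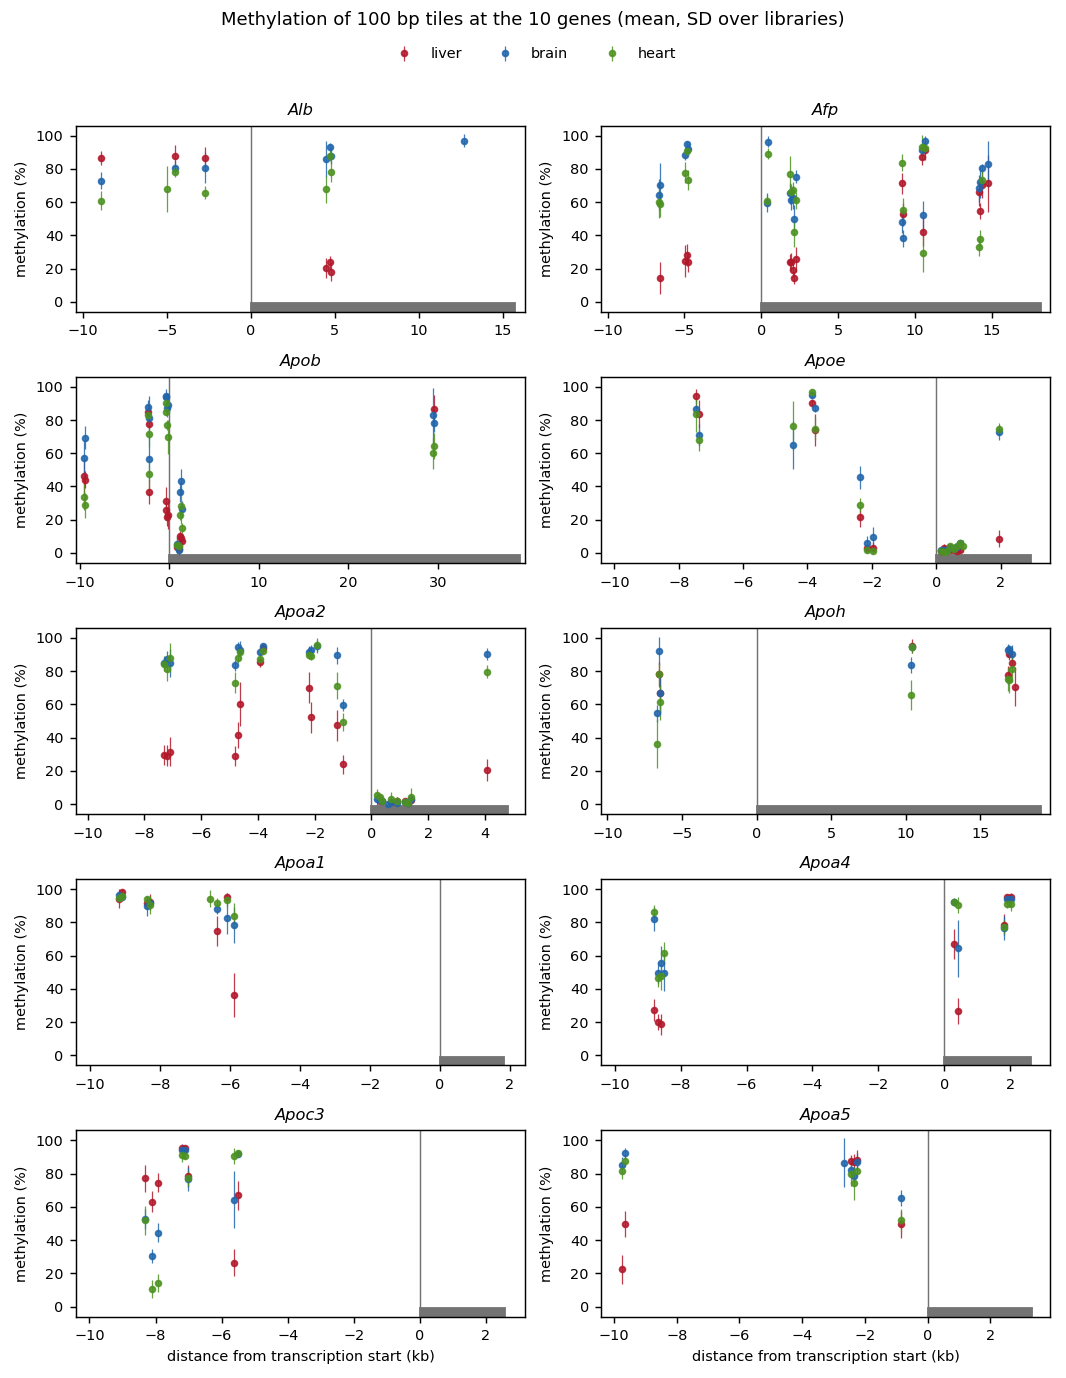
Methylation level in percent (y axis) of every tile of the 10 genes against its distance from the transcription start in kb (x axis), with points for the mean and bars for the SD over 12 liver, 6 brain and 6 heart libraries. The grey bar marks the gene. Liver points separate downward from the others at single stretches of Alb, Afp, Apob, Apoe, Apoa2, Apoa1, Apoa4 and Apoa5 and, through shared tiles, Apoc3, while no tile of Apoh was called and the tiles just inside Apoe are under 10% in the 3 tissues.

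The lowest stretch of Alb in the liver lay inside the gene, in intron 5. Alb (gene 11657, chr5:90460870-90476602, plus strand) had 3 tiles in all tables there, at chr5:90465301-90465700, between 4480 and 4780 bp after the start. Over these 3 tiles the liver libraries ranged from 17.4 to 26.7% with a median of 20.1%, the brain libraries from 80.1 to 92.2% with a median of 90.7%, and the heart libraries from 74.7 to 84.4% with a median of 76.7%. No liver library came near those of the other tissues. The body of Alb was 68.3 points (SE 1.67) lower in liver than in brain and 57.2 points (SE 1.67) lower than in heart, with adjusted p of 1.4e-20 and 3.9e-19 by limma over the bodies of 17297 genes. Ordered from the most negative difference, it ranked 2 of 17297 bodies against brain and 11 against heart, where 1.26% and 0.786% of all bodies were called lower in liver. Alb had the only body among the 7 covered ones that was called, but its body level is that of these 3 tiles of intron 5 alone. The bodies of Afp, Apoa2 and Apoe were averaged over 13, 8 and 8 tiles, which include the low liver tiles given below. The middle tile of the 3 in Alb holds 2 CpGs, both in CCGG. It is shown because it had the strongest adjusted p of the 10 genes' tiles against brain, 1.4e-17 by limma.
Alb intron 5, chr5:90465501-90465600, plus strand: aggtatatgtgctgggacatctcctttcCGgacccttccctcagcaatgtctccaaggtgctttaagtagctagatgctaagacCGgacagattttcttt

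Upstream of Alb the levels ran the other way. The 3 tiles that were in all tables, 8920, 4520 and 2720 bp before the start, were at 86.4, 87.7 and 86.7% in liver, at 73.0, 80.7 and 80.6% in brain and at 60.7, 78.3 and 65.7% in heart. The tile farthest upstream was called higher in liver than in heart, by 25.7 points (SE 2.60, adjusted p = 5.5e-09 by limma), and not called against brain. Leaving out heart library 1 or heart library 5 took it just under 25 points, to 24.6 in both cases. Alb thus had high upstream tiles and a low intron in the same liver libraries.

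Afp had low liver tiles both before and inside the gene. Its gene (11576, chr5:90490714-90508907, plus strand) follows Alb on the chromosome, and the stretch before it is known to carry liver enhancers, whose positions were not compared with the tiles here. At chr5:90485701-90486000, between 4964 and 4764 bp before the start, 3 tiles had 18.3 to 33.8% in the liver libraries with a median of 24.2%, 89.4 to 95.7% in the brain libraries with a median of 91.1%, and 76.6 to 85.1% in the heart libraries with a median of 80.1%. The tile at chr5:90484101-90484200 was at 14.5% ± 9.69 (SD, n = 12) in liver, 70.5% ± 13.2 (n = 6) in brain and 58.6% ± 7.48 (n = 6) in heart. All 4 upstream tiles were called lower in liver than in both. The upstream region of Afp was 63.7 points (SE 2.0) lower in liver than in brain and 52.3 points (SE 2.0) lower than in heart (adjusted p of 1.3e-18 and 8.8e-17 by limma), where 2.93% and 1.64% of 15327 upstream regions were called lower. The tile with the largest difference is shown with its CpGs in capitals.
Afp, 4864 bp before the start, chr5:90485801-90485900, plus strand: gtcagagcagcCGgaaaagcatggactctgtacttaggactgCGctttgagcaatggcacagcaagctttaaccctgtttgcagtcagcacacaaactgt

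Inside Afp the tissues differed in several ways. From intron 2 through exon 3 to intron 3, 5 adjoining tiles at chr5:90492501-90493000 had a mean of 21.4% ± 4.23 (SD, n = 12) in liver, 62.9% ± 2.82 (n = 6) in brain and 62.6% ± 3.72 (n = 6) in heart, and all 5 were called lower in liver than in both. Without heart library 1 the tile at chr5:90492801-90492900 lost its call against heart. In intron 7, the tile at chr5:90499801-90499900 was lowest in the brain, with 36.2 to 57.8% there against 59.6 to 78.5% in liver and 78.7 to 92.4% in heart. It was called lower in brain than in heart, by 35.6 points (SE 3.72, adjusted p = 2.3e-08 by limma), and at 23.0 points below liver it stayed under the threshold. At 2 of the 3 tiles of intron 10 and exon 11 the heart was lowest, with 33.2% ± 5.38 (SD, n = 6) at chr5:90504801-90504900 against 65.99% ± 8.36 (n = 12) in liver and 68.2% ± 8.36 (n = 6) in brain. Here the liver was called higher than the heart by 32.8 points (SE 3.96, adjusted p = 1.2e-07). At the third of these tiles, chr5:90505001-90505100, the level was 70.2% in liver, 73.5% in heart and 80.2% in brain, with no call. Averaged over its 13 tiles the Afp body did not pass the threshold, with 49.4% in liver, 66.2% in brain and 62.4% in heart.

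Apob gave the clearest promoter difference. In this gene (238055, chr12:7977677-8016839, plus strand) 4 adjoining tiles covered chr12:7977201-7977600, and all 4 were called lower in liver than in both. Their mean ranged from 20.5 to 34.4% in the liver libraries with a median of 25.5%, from 88.5 to 93.3% in the brain libraries with a median of 91.1%, and from 77.6 to 84.9% in the heart libraries with a median of 80.2%. The groups did not overlap. The promoter was 65.6 points (SE 1.80) lower in liver than in brain and 55.1 points (SE 1.80) lower than in heart, with adjusted p of 8.5e-20 and 4.5e-18 by limma over 12456 promoters, of which 1.85% and 1.24% were called lower in liver. It ranked 13 of 12456 from the most negative difference against brain and 24 against heart. The tile nearest the start, at chr12:7977501-7977600, was the most variable of the 4 in the heart, with 56.2 to 82.5% there, 9.20 to 38.6% in liver and 84.0 to 92.5% in brain. Of the 250 bases printed above for Apob, the last 2 tiles of the promoter cover all but the end next to the start.

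The rest of Apob was less uniform. In intron 2, 5 tiles at chr12:7978501-7979100 were low in every tissue, at 6.45% ± 1.63 (SD, n = 12) in liver, 22.7% ± 2.14 (n = 6) in brain and 15.1% ± 2.49 (n = 6) in heart. Within them the tiles 873 and 1073 bp after the start were under 10% in all 3 tissues. The tiles at 1173 and 1273 bp were called lower in liver than in brain, by 26.8 points (SE 1.98) and 33.8 points (SE 3.18), and were not called against heart. About 9.5 kb before the start the order was brain, liver, heart: the tile at chr12:7968201-7968300 was at 69.2% ± 6.95 in brain, 44.1% ± 5.17 in liver and 28.8% ± 7.44 in heart, the brain being called higher than the heart by 40.5 points (SE 3.76, adjusted p = 3.4e-09 by limma). Its call lower in liver than in brain, at 25.1 points, was lost without any 1 of liver libraries 2, 4, 5, 8 and 9 or brain libraries 2, 4 and 5. The long exon 26 was read by 1 tile in all tables, at 86.6% in liver, 78.3% in brain and 64.2% in heart, which was not called.

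Apoe combined an unmethylated 5′ part with 1 tile that was low in the liver alone among the 3 tissues. In this gene (11816, chr7:19696244-19699188, minus strand) 7 tiles of exon 1 and intron 1, between 138 and 738 bp after the start, averaged 1.92% ± 0.75 (SD, n = 12) in liver, 3.03% ± 0.51 (n = 6) in brain and 2.80% ± 0.56 (n = 6) in heart. The tile at chr7:19697201-19697300, in intron 3 and 1938 bp after the start, had 0 to 16.7% in the liver libraries with a median of 7.80%, 67.2 to 78.7% in the brain libraries with a median of 72.3%, and 70.0 to 78.6% in the heart libraries with a median of 74.3%. It was 64.0 points (SE 2.58) lower in liver than in brain and 65.7 points (SE 2.58) lower than in heart, with adjusted p of 1.3e-16 and 1.6e-16 by limma. Only 0.175% of all tiles had a more negative difference between liver and heart. This was the lowest liver level among the 34 tiles, and brain and heart differed there by 1.75 points with an SE of 2.98. It is written along the gene, on the minus strand.
Apoe intron 3, chr7:19697201-19697300, minus strand: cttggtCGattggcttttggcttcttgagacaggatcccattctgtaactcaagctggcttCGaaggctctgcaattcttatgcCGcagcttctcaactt

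Upstream of Apoe the tiles lie next to and over the neighbouring gene Tomm40. None was called between liver and another tissue. The tile at chr7:19701501-19701600 came nearest, with 21.5% ± 6.07 (SD, n = 12) in liver, 45.5% ± 6.73 (n = 6) in brain and 28.9% ± 3.99 (n = 6) in heart, 24.0 points (SE 2.81) lower in liver than in brain. Farther away, between 3762 and 7462 bp before the start, the 4 tiles in all tables stood between 74.1 and 94.5% in liver.

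**Figure D3:**
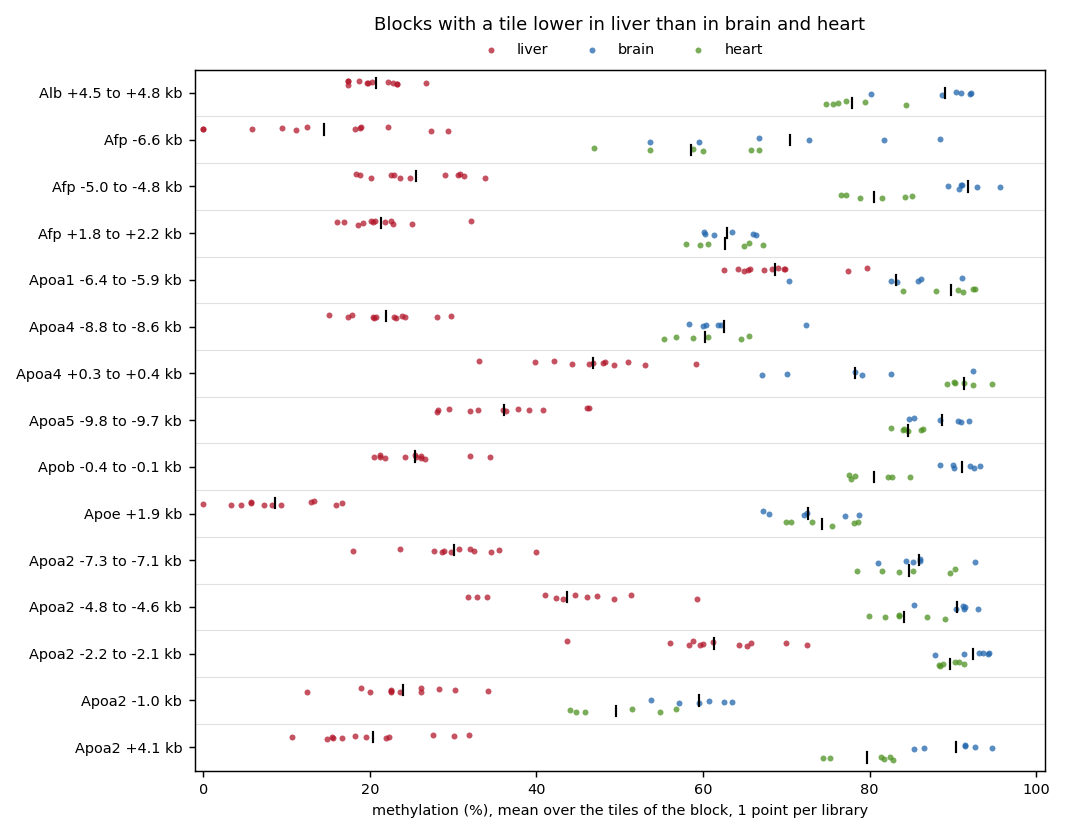
Methylation level in percent (x axis) of 15 blocks of neighbouring tiles that hold at least 1 tile called lower in liver than in brain and heart, named by gene and distance from the transcription start (y axis). Each point is 1 library and each bar a tissue mean. In 11 of the 15 blocks liver libraries lie wholly under 50%, and in 14 of the 15 they do not reach any brain or heart library. The blocks were chosen for such a tile, so low and separate liver levels in them follow in part from that choice. The share over all blocks was not computed.

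Apoa1, Apoc3, Apoa4 and Apoa5 lie in 1 cluster on chromosome 9. Apoa1 itself (11806, chr9:46228630-46230469, plus strand) had no tile in its promoter or body, and its 7 upstream tiles in all tables lie inside the gene Sik3. Of these, 6 were at 74.6 to 98.2% in liver and were not called. The exception, at chr9:46222701-46222800 and 5880 bp before the start, was at 36.3% ± 13.2 (SD, n = 12) in liver, 78.4% ± 10.9 (n = 6) in brain and 84.1% ± 7.65 (n = 6) in heart. The liver libraries ran from 12.9 to 57.1% there and stayed under the lowest brain library at 60%. The tile holds 1 CpG.

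Between the end of Apoa1 and the end of Apoc3, which point toward each other, 3 tiles at chr9:46232001-46232300 were low in the liver. They fall in the upstream window of Apoa4 (11808, chr9:46240844-46243458, plus strand), about 8.7 kb before its start. Over these tiles the liver libraries ranged from 15.1 to 29.7% with a median of 21.8%, the brain libraries from 58.3 to 72.4% with a median of 61.1%, and the heart libraries from 55.3 to 65.6% with a median of 59.7%. All 3 tiles were called lower in liver than in both, and without heart library 1 the middle tile lost its call against heart. The region was 40.5 points (SE 2.11) lower in liver than in brain and 38.3 points (SE 2.11) lower than in heart, with adjusted p of 2.4e-14 and 7.3e-14 by limma. The tile with the largest difference is shown, and its 1 CpG lies in a CCGG.
Between Apoa1 and Apoc3, chr9:46232001-46232100, plus strand: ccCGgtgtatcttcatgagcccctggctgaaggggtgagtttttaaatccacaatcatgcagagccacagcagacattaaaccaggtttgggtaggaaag

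At the start of Apoa4, 2 tiles of exon 1 and intron 1 were lower in liver, and at 1 of them brain and heart differed as well. At chr9:46241201-46241300, which ends in intron 1, the liver libraries had 15.9 to 44.0% with a median of 23.8%, the brain libraries 41.0 to 90.7% with a median of 65.3% and the heart libraries 85.0 to 97.1% with a median of 89.2%. Liver and brain overlapped slightly and brain and heart overlapped, and the brain SD of 17.0 points was the widest of the named tiles. The tile was called lower in liver than in brain (by 38.0 points, SE 5.02), lower in liver than in heart (by 64.0 points, SE 5.02) and lower in brain than in heart (by 26.1 points, SE 5.80, adjusted p = 6.6e-04 by limma). The call between brain and heart was lost without brain library 3, brain library 5 or heart library 5. The neighbouring tile in exon 1 was called lower in liver by 25.03 and 25.13 points, just past the threshold, and leaving out single libraries gave 23.5 to 25.9 points. The calls were lost without any 1 of liver libraries 7, 8, 10 and 12, the call against brain also without brain library 1, 2, 3 or 6, and the call against heart without heart library 3 or 6. In exon 3, 3 tiles were at 89.8% in liver, 88.2% in brain and 86.4% in heart.

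Directly after Apoa4 the order of the tissues was reversed. Here, in the upstream window of Apoc3 (11814, chr9:46233050-46235636, minus strand), 3 tiles at chr9:46243501-46244000 had 64.1 to 78.1% in the liver libraries with a median of 71.6%, 35.8 to 46.6% in the brain libraries with a median of 43.3%, and 20.9 to 29.4% in the heart libraries with a median of 25.1%. The 3 groups did not overlap. The tile at chr9:46243501-46243600 was 30.0 points (SE 3.10) higher in liver than in brain and 60.6 points (SE 3.10) higher than in heart, with adjusted p of 8.4e-09 and 1.6e-14 by limma, and 99.86% of all tiles had a lower difference between liver and heart. The 2 tiles of the 10 genes in which every liver library was above all others lay here. Apoc3 thus had no tile in its promoter or body, and the 8 tiles of its window lie in or behind Apoa4. One tile is shown along the Apoc3 strand as an example of the reverse order.
Behind Apoa4, chr9:46243501-46243600, minus strand: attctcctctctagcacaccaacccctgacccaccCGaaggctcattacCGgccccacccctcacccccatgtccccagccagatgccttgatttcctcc

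Apoa5 (66113, chr9:46268608-46271921, plus strand) differed between tissues at the far end of its window. At chr9:46258801-46259000, 9758 and 9658 bp before the start, the liver libraries had 28.1 to 46.3% with a median of 36.2%, the brain libraries 84.7 to 92.0% with a median of 89.5% and the heart libraries 82.6 to 86.5% with a median of 84.4%. Both tiles were called lower in liver than in both. The 3 tiles from 2458 to 2258 bp before the start were at 87.4% in liver, 82.6% in brain and 78.6% in heart and were not called. The single promoter tile, 858 bp before the start, was at 49.4% ± 8.23 (SD, n = 12) in liver, 65.5% ± 4.78 (n = 6) in brain and 51.9% ± 7.01 (n = 6) in heart and was not called either. Liver and heart differed there by 2.44 points with an SE of 3.75.

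**Figure D4:**
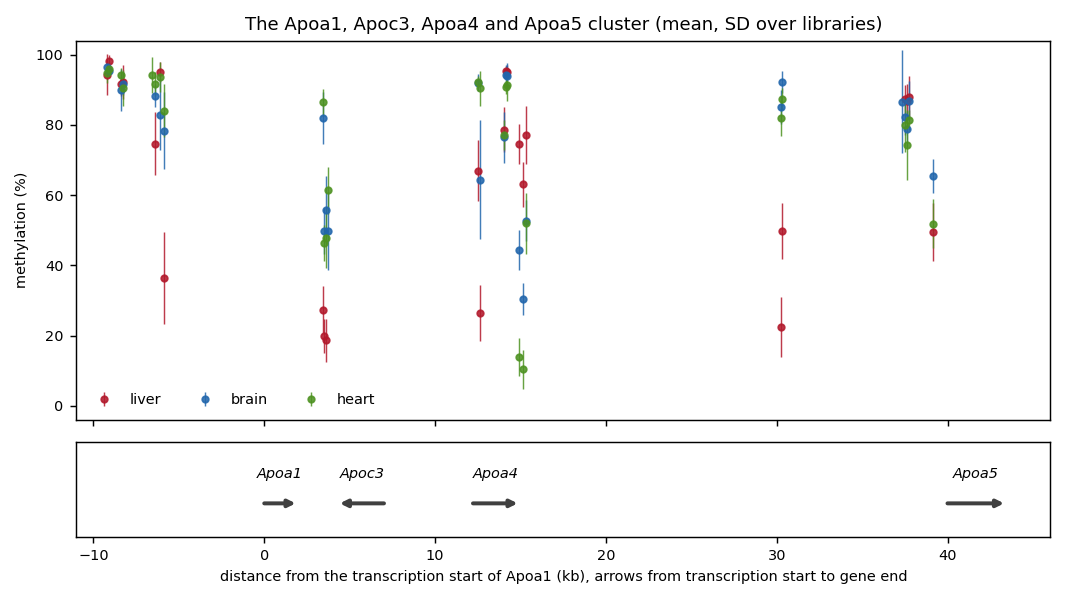
Methylation level in percent (y axis) of the tiles of the cluster on chromosome 9 against the distance from the start of Apoa1 in kb (x axis), with means and SDs over libraries, and the 4 genes as arrows from start to end. Liver is low between Apoa1 and Apoc3, at the start of Apoa4 and before Apoa5, and it is high behind Apoa4, where brain is at 42.5% and heart at 25.4% on average.

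Apoa2, like Afp, had 9 tiles called lower in liver than in both. The curated mRNAs of this gene (11807, chr1:171221564-171226379, plus strand) start at 2 places, and the reference mRNA starts 3490 bp inside the gene as taken here. Before the first start, over the neighbouring genes Nr1i3 and Tomm40l, 3 upstream blocks held tiles called lower in liver than in both. At 7314 to 7114 bp before the start the level was 30.2% ± 5.67 (SD, n = 12) in liver, 85.9% ± 3.79 (n = 6) in brain and 84.8% ± 4.6 (n = 6) in heart. At 4814 to 4614 bp it was 43.6% ± 8.05, 90.4% ± 2.62 and 84.1% ± 3.33, and at 2214 to 2114 bp 61.3% ± 7.41, 92.4% ± 2.49 and 89.6% ± 1.27. Between the first pair of blocks and the third, 2 tiles stood at 89.5% in liver, 93.4% in brain and 89.7% in heart. The tile 1214 bp before the start was at 47.37% in liver, 89.53% in brain and 71.35% in heart. It was called lower in liver than in brain, by 42.17 points (SE 4.09). Against heart it stayed under the threshold, at 23.98 points (SE 4.09). The upstream region as a whole was 38.2 points (SE 1.39) lower in liver than in brain and 33.3 points (SE 1.39) lower than in heart, with adjusted p of 2.3e-17 and 4.5e-16 by limma.

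The tile that touches the far edge of the Apoa2 promoter, at chr1:171220501-171220600, lies over Tomm40l. It had 12.5 to 34.2% in liver, 53.8 to 63.5% in brain and 44.0 to 56.7% in heart. It was called lower in liver than in brain by 35.5 points (SE 2.48) and than in heart by 25.6 points (SE 2.48) as a promoter region, the second call resting on a difference just over the threshold and lost without liver library 7, heart library 4 or heart library 6. With a promoter of 1000 bp on both sides of the start the differences shrank to 7.0 and 5.9 points, since the window then took in a stretch that was unmethylated in every tissue. This stretch, 286 to 1386 bp after the first start and partly over Tomm40l, held 7 tiles in all tables at 1.72% ± 0.55 (SD, n = 12) in liver, 1.73% ± 0.42 (n = 6) in brain and 2.57% ± 0.64 (n = 6) in heart.

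Close to the start of the reference mRNA of Apoa2 the tissues separated again. The tile at chr1:171225601-171225700, 596 bp after that start and over intron 2 and coding exon 3, had 10.7 to 31.9% in the liver libraries with a median of 18.9%, 85.3 to 94.7% in the brain libraries with a median of 91.5%, and 74.4 to 82.8% in the heart libraries with a median of 81.6%. It was 69.9 points (SE 3.03) lower in liver than in brain and 59.3 points (SE 3.03) lower than in heart, with adjusted p of 4.5e-16 and 1.6e-14 by limma. Only 0.124% of all tiles had a more negative difference between liver and brain, and it was the largest such difference among the tiles of the 10 genes. It is shown with its 3 CpGs, 2 of them in CCGG.
Apoa2 intron 2 and exon 3, chr1:171225601-171225700, plus strand: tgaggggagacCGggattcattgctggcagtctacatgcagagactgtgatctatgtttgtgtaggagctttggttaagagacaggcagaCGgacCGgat

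Apoh (11818, chr11:108395297-108414396, plus strand) was the only gene of the 10 with no tile called in any comparison. Its 6 tiles in all tables were at 67.0 to 95.2% in liver, 66.8 to 94.5% in brain and 61.2 to 94.4% in heart. The nearest to the start lies 6447 bp before it. Its largest difference involving the liver was 15.6 points (SE 2.40), higher in liver than in heart, in intron 7. At the same tile the heart was 18.6 points (SE 2.78, adjusted p = 5.6e-06 by limma) below the brain, a difference under the threshold of 25 points.

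Taken by region, liver was called lower than both other tissues in the promoters of Apob and Apoa2 out of 3 covered promoters. It was also called lower in the body of Alb out of 7 covered bodies, and upstream of Afp, Apoa2 and Apoa4 out of 10 upstream regions. The Apoa2 promoter rests on the single tile at its far edge, with the limits given above, and the Alb body on 3 tiles of intron 5. Over all genes, 1.24% of promoters, 0.786% of bodies and 1.64% of upstream regions were called lower in liver than in heart. The shares called lower than both cannot exceed these. No covered region of the 10 genes was called higher in liver, or called between brain and heart. Over the 103 tiles the median difference was -6.48 points between liver and brain and -2.44 points between liver and heart, beside medians of 0.28 and 3.50 points over all tiles.

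Other genes of plasma lipoproteins were read in the same way over promoter and body regions. Of 6 other apolipoprotein genes, Apoc2, Apoc4, Apof and Apom had a promoter or body called lower in liver than in both, in 6 of 11 regions. Over all genes at most 1.24% of promoters and 0.786% of bodies were called so, the shares lower in liver than in heart. The body of Apom, the carrier of sphingosine 1-phosphate on lipoproteins, was at 22.6% in liver, 80.4% in brain and 84.9% in heart. The promoter of Apoc2, the activator of lipoprotein lipase, was at 16.8% in liver, 79.2% in brain and 56.6% in heart, and its body at 17.9, 79.2 and 70.5%. Apoc1 was called lower in liver than in brain only, and Apod was not called against the liver. Of the albumin family neighbours, Gc, the vitamin D binding protein, had a body at 18.7% in liver, 80.6% in brain and 64.2% in heart that was called lower than both, and Afm was not called in its body. Among 12 genes of lipoprotein assembly, remodelling and uptake, 1 was called, the body of Lcat, the enzyme that esterifies cholesterol in plasma, at 28.5% in liver, 81.4% in brain and 92.3% in heart.

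The tissue labels were set against marker genes, read as methylation and not as expression. Of 8 hepatocyte markers, 7 had a promoter or body called lower in liver than in both (9 of 11 regions), with a median of 29.8% in liver, 80.6% in brain and 70.4% in heart. The upper limits over all genes are those given for the other apolipoproteins. Fgb, which codes for fibrinogen beta, and Hnf4a, a hepatocyte transcription factor, were among them, with promoters at 21.7 and 17.1% in liver. Of 7 covered cardiomyocyte markers 1 had a region called lower in heart than in both, the body of Myl2, and of 4 endothelial markers 2 had, Kdr and Pecam1. The share of all regions called lower in heart than in both was not computed. The body of Nppa, a cardiomyocyte marker, was lowest in the brain, at 43.1% against 68.0% in heart and 81.2% in liver, and was called lower in brain than in liver by 38.2 points (SE 1.94, adjusted p = 1.1e-14 by limma). None of 14 regions of 8 neural markers and none of 6 regions of 5 covered leukocyte markers was called between tissues at 25 points. The Mag promoter came nearest, 24.76 points (SE 3.55) higher in liver than in brain, and the Mog body was 18.75 points (SE 1.99) higher. The Olig1 promoter went the other way, at 9.13% in liver and 16.48% in brain. The share of all regions called lower in brain than in both was not computed. The range over the leukocyte regions was 69.5 to 94.4% in liver, 58.1 to 92.5% in brain and 62.1 to 91.7% in heart. The part of these other cells in the levels above was not tested.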

How the data were processed

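Genomic DNA of 12 liver, 6 brain and 6 heart samples was read by enhanced reduced representation bisulphite sequencing through a commercial service. Per the labels, reads were processed with Bismark and methylKit against mm10. The paper instead states that the service mapped the reads with methods of its own, which are proprietary. The authors tiled the CpG calls into 100 bp windows with methylKit, kept tiles covered more than 10 times in every library of a tissue and below the top of the coverage distribution, and deposited the methylation level of each tile and library as a fraction between 0 and 1, with no read counts in the tables. All 24 level columns were used, each as a library of its tissue. The depth per tile is unknown, so no counting interval is given.

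Fractions were multiplied into percent. Gene models were curated RefSeq mRNAs of GRCm38.p6, 20021 autosomal genes. A tile went to the first of promoter (1000 bp before the 5′-most start), body and upstream (the rest of 10000 bp) that it touched. The distance of a tile is that of its centre from the start, and neighbouring tiles of a gene region less than 500 bp apart form a block. The 758685 tiles present in all 3 tables were fitted with limma 3.58.1 in R 4.3.3 on levels in percentage points, with the 3 tissues in 1 fit, empirical Bayes moderation with a trend, and Benjamini-Hochberg adjustment over all tiles of a contrast. The same fit was run on region means over all genes with a covered region. The study tested read counts between sexes, which could not be repeated on levels, and its thresholds were kept. The fit was tested on simulated data before use.

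Libraries came from separate mice within a tissue, but the brain and heart mice also gave liver, which the columns cannot be matched to, so libraries were treated as independent. The members and lists were chosen with earlier results of these data known. Within each gene the tiles named were the called tile with the largest difference between liver and the mean of the other tissues in each region, or the largest difference where none was called, and the tile nearest the start. Further tiles in the Afp body, in Apob and behind Apoa4 were named after their values were seen. Single tiles upstream of Alb, Afp and Apoa2 were also given outside this rule, and some tiles picked by it are given only within their block. Of the gene lists, at most 3 genes with the largest difference in a direction were named with values. Fgb, Hnf4a, Mag, Mog and Olig1 were named beside them, chosen after their values were seen. Alternatives were a logit scale, no trend, a threshold of 10 points, tiles of 2 tables, other region limits, the median over tiles, an exact two-sided permutation test of the called regions and leaving out each library. Python 3.11.15, pandas 2.3.3 and matplotlib 3.10.9 were used for joins and plots.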

Additional observations from a re-analysis of the deposited data

Results flagged for a closer look

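Outliers were looked for in the brain and heart groups of 6 libraries, at the tiles named by rule and the regions called, by the gap of the extreme library to its nearest neighbour as a share of the range set against Dixon's critical value at 95%. Of 60 groups, 4 passed, where chance alone passes about 1 in 20 groups. In the body of Alb 1 brain library was at 80.1%, against 88.7 to 92.2% in the other 5. Upstream of Apoa4 1 brain library was at 72.4%, against 58.3 to 62.2% in the others. In the tile of Apoa4 exon 1 at chr9:46241101-46241200 1 heart library was at 88.9%, against 92.0 to 93.7% in the others. In the tile of Apoh at chr11:108388701-108388800 1 brain library was at 76.0%, against 90.9 to 97.5% in the others. The liver group of 12 was not tested in this way.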

How the results depend on the processing

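The 6 counts of called tiles did not fall on a logit scale, without the trend or with tiles of 2 tables. Every called tile difference kept its call there. With a threshold of 10 points, which admits smaller differences, 48 tiles were lower in liver than in brain (46.6%, against 11.4% of all tiles) and 40 lower in liver than in heart (38.8%, against 5.33%). The tiles higher in liver than in brain became 8 (7.77%, against 13.2%) and than in heart 13 (12.6%, against 23.5%), those lower in brain than in heart 4 (3.88%, against 5.28%) and those higher in brain than in heart 22 (21.4%, against 22.2%). Leaving out 1 library at a time gave 36 to 38 tiles lower in liver than in brain, 2 to 3 higher, 32 to 35 lower in liver than in heart, 3 to 5 higher, 1 to 2 lower in brain than in heart and 4 to 5 higher. Of 58 alternative values for the 12 region differences called, 56 kept direction and call, and the other 2 are those of the Apoa2 promoter with a window on both sides, given above. Of the 58, 12 come from an exact permutation test of the libraries, which adds no support at regions chosen by their call. Leaving out libraries ended the call of 1 region difference, the Apoa2 promoter against heart. Of the 85 called tile differences in the 3 comparisons, none changed direction under any alternative. Leaving out 1 library ended the call of 9 of them at least once. They are the 8 given above in Alb, Afp, Apob, Apoa2 and Apoa4 and the tile behind Apoa4 at chr9:46243901-46244000, whose call higher in liver than in heart was lost without any 1 of 7 liver and 3 heart libraries. No paired analysis was possible because the columns of levels carry no mouse number. Precision is limited by the unknown depth, and tiles with 1 CpG rest on that CpG alone.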
